A study of Mus musculus with 107 samples.

Results

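Mouse neural progenitor cells (NPC) differentiated for 4 days with insulin-like growth factor 1 (IGF-1) were compared with NPC differentiated for the same time without it. The comparison rested on 8 of the 107 libraries of the series, 4 titled IGF (here IGF-1) and 4 titled Spontaneous diff (here SPONT), taken by title. SPONT cultures were kept in neural expansion medium in which EGF and FGF had been lowered from 100 to 1 ng/ml, and IGF-1 cultures received that medium with 100 ng/ml IGF-1 added. All cells of both groups came from 1 female embryonic stem cell (ESC) line on a C57BL/6 background that carries RiboTag, a hemagglutinin-tagged form of the ribosomal protein Rpl22 switched on by Sox2-Cre. The RNA measured was therefore the polyadenylated RNA held by tagged ribosomes, and 1 ESC line is the only genotype behind these 8 libraries. Host astrocyte samples, given further on for orientation only, came instead from the spinal cord of mice in which Gfap-Cre switched on RiboTag. The labels do not give the passage or derivation of the NPC, and they do not say whether the 4 replicates of a group were separate cultures, so p-values measure the spread among these libraries, which may be technical. The paper states in general terms that its in vitro experiments had independent biological replicates, and does not say so library by library. Both media contain B27, a supplement that itself holds insulin.

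IGF-1 is a peptide hormone that binds the receptor tyrosine kinase Igf1r, and at high concentration also the insulin receptor Insr. Both receptors phosphorylate the adaptors Irs1 and Irs2, which recruit PI3K and activate Akt; Akt keeps FOXO transcription factors out of the nucleus and permits growth through mTORC1. In the developing brain IGF-1 is best known for its support of oligodendrocyte survival and myelination, and secreted binding proteins (Igfbp) set how much of it reaches the receptor.

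Library sums were 62174188 to 76772832 reads counted in genes in SPONT and 70773147 to 77968355 in IGF-1. Values are given in CPM, a gene's count divided by the library's sum and expressed per 1e+06 counts, scaled between libraries by the trimmed mean of M values (TMM). The library labelled SPONT replicate 2 stood apart from its group. Its log2 CPM correlated with the 4 IGF-1 libraries at a mean r of 0.988 and with the other SPONT libraries at a mean r of 0.981, whereas the other 7 libraries each correlated better with their own group. On the first principal component, which held 50.2% of the variance, SPONT replicates 1, 3 and 4 scored -42.5, -37.7 and -39.3, SPONT replicate 2 scored 12.3, and IGF-1 replicates 1 to 4 scored 27.7, 24.2, 37.4 and 18.0. Results are therefore given with and without SPONT replicate 2.

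**Figure D1:**
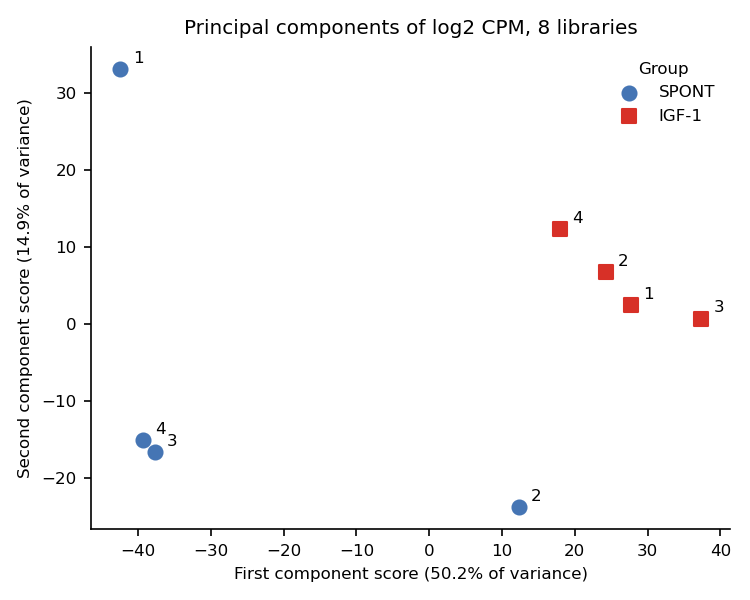
Scores of the 8 libraries on the first and second principal component of log2 CPM over 14941 genes, with SPONT as circles, IGF-1 as squares and the replicate number beside each point. SPONT replicate 2 lies at 12.3 on the first component, on the side of the IGF-1 libraries (18.0 to 37.4), while SPONT replicates 1, 3 and 4 lie at or below -37.7.

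This library was placed on the genes called between IGF-1 and the remaining 3 SPONT libraries, since it took no part in choosing them. The other libraries did take part, and no other SPONT library was placed this way for reference. Of the 5715 such genes with a level in all 8 libraries, SPONT replicate 2 fell within the range of the IGF-1 libraries for 2191, between the ranges for 2500, past the IGF-1 range for 523, within the range of SPONT replicates 1, 3 and 4 for 422 and past that range on the far side for 79. Its median position was 77.5% of the way from the SPONT to the IGF-1 mean on the log2 scale. The position differed by gene group: it was 26.4% over 7 BMP and Id genes, 51.2% over 9 myelin genes, and 146% over 9 genes of the ATF4 and amino acid response, for 7 of which it was past every IGF-1 library. Atf4, the transcription factor of the integrated stress response, measured 58.4, 174, 79.4 and 76.3 CPM in SPONT replicates 1 to 4 and 142, 134, 151 and 131 CPM in IGF-1 replicates 1 to 4. Trib3, an ATF4 target, measured 0.618, 4.41, 0.680 and 0.619 CPM in SPONT replicates 1 to 4 and 2.01, 1.77, 1.99 and 2.90 CPM in IGF-1 replicates 1 to 4. Both genes were highest in SPONT replicate 2, above all 4 IGF-1 libraries. The sum of 5 measured nuclear RNAs was also highest there, at 436 CPM against 173 to 265 CPM in IGF-1. Whether these differences had a part in the results was not tested.

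As a check of the labels, SPONT libraries carried the RNA of glia. IGF-1 libraries carried it too, so this check cannot tell a SPONT label from an IGF-1 label. Gfap, the astrocyte intermediate filament, measured 6107 to 9547 CPM in SPONT and Gpr17, a marker of committed oligodendrocyte progenitors, 1073 to 2249 CPM. Of 8 myeloid genes only 2, Csf1r and C1qa, passed the filter on low counts, summing to no more than 0.811 CPM in SPONT and 1.495 CPM in IGF-1, and 8 of 10 mesenchymal and endothelial genes summed to 14.6 to 18.1 CPM in SPONT and 12.4 to 16.2 CPM in IGF-1. Of 6 pluripotency genes Pou5f1, Dppa4 and Zfp42 did not pass the filter, and the other 3 summed to at most 2.70 CPM in SPONT and 2.61 CPM in IGF-1. No gene of these lists passed an adjusted p of 0.01 by edgeR; 2 mesenchymal genes were lower at an unadjusted p under 0.05 and 1, Pdgfrb, by DESeq2. Over all genes, 6588 of 14941 had an unadjusted p under 0.05, and DESeq2 called 1600 higher and 1965 lower. In these bulk samples, a lower level of a marker may mean fewer cells of a type or less RNA per cell, and the 2 cannot be told apart.

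Comparing IGF-1 with SPONT gave 979 differentially expressed genes (DEGs; adjusted p below 0.01, edgeR quasi-likelihood test) of 14941 tested. IGF-1 cultures had higher levels of 418 genes (2.80% of those tested) and lower levels of 561 (3.75%). Under upper quartile scaling the split was 509 higher and 431 lower. An unadjusted p under 0.05 was reached by 6588 of the 14941 genes in either direction. DESeq2 called 1600 genes higher and 1965 lower of 19849 with counts. Differences were modest, with a median log2 fold change of 0.64 among the higher and -0.61 among the lower DEGs, and 53 DEGs exceeded 1 while 80 were under -1. The 2 groups did not overlap for all 418 higher and 557 of the 561 lower DEGs, against 13.6% of all tested genes that lay wholly higher in IGF-1 and 14.0% wholly lower. Without SPONT replicate 2, 2670 genes were higher (17.7% of 15106 tested) and 3054 lower (20.2%), and all 979 DEGs were among them.

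No gene was a DEG in all 8 fits that each left out 1 library. At that threshold, leaving out SPONT replicate 3, SPONT replicate 4 or IGF-1 replicate 1, 2 or 4 left 0 DEGs by edgeR, with 5342 to 6156 genes at an unadjusted p under 0.05. The smallest adjusted p in those 5 fits was 0.0160 to 0.0217. Leaving out IGF-1 replicate 3 left 1, and leaving out SPONT replicate 1 left 513, of which 405 were among the 979. The 1 gene that passed in 3 of the 8 fits was Tenm2, a teneurin that links synaptic membranes. Every one of the 979 DEGs had the same sign and an adjusted p under 0.05 in each of the 8 fits, with 0.0418 the largest, and the largest unadjusted p any of them reached was 0.00345. Over all tested genes, 643 higher (4.30%) and 850 lower (5.69%) had an adjusted p under 0.05 in all 8 fits.

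**Figure D2:**
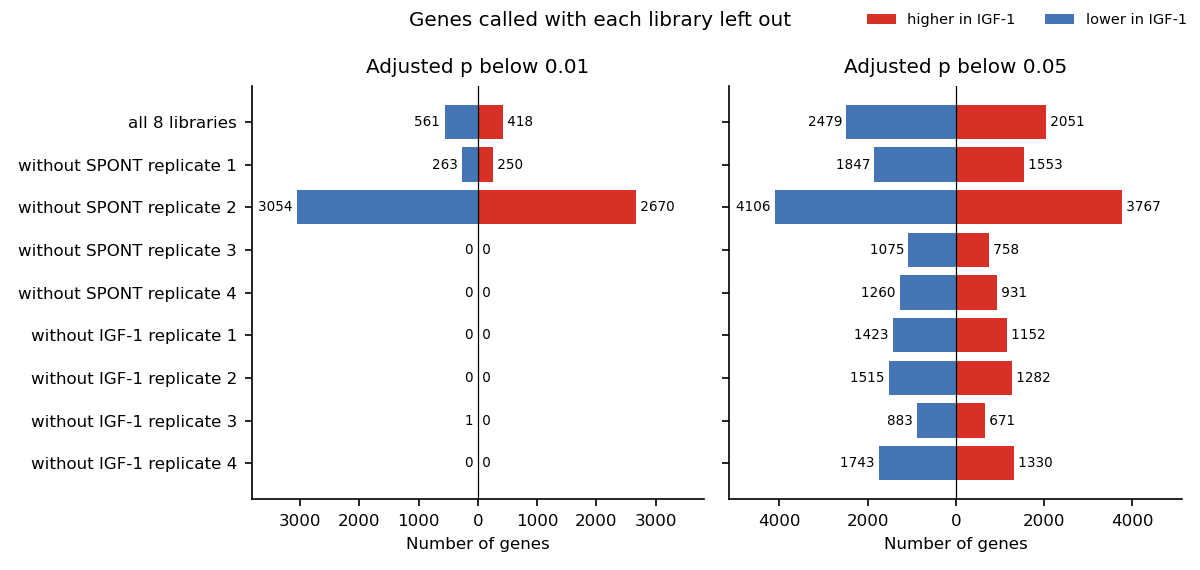
Number of genes higher in IGF-1 (right of 0) and lower (left of 0) with all 8 libraries and with each library left out, at an adjusted p below 0.01 on the left panel and below 0.05 on the right. At 0.01 the count runs from 0 to 5724, and at 0.05 every fit calls genes, with 671 to 3767 higher and 883 to 4106 lower.

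The genes named for the least dependence on any single library were the 5 in each direction with the smallest of their largest p over the 8 fits. Tenm2 (Entrez gene 23964, chr11:36006656-37237053 in GRCm38.p6) measured 10.9, 11.7, 12.7 and 11.5 CPM in SPONT replicates 1 to 4 and 4.27, 3.70, 5.36 and 4.17 CPM in IGF-1 replicates 1 to 4. All 4 SPONT libraries were more than 2 times the highest IGF-1 library. Its log2 fold change was -1.42 ± 0.13 (SE; adjusted p = 0.00366), and its largest p over the 8 fits was 4.96e-06. Cacng5, an auxiliary subunit of AMPA receptors, measured 27.4, 22.2, 36.7 and 34.7 CPM in SPONT replicates 1 to 4 and 10.1, 10.4, 9.85 and 10.7 CPM in IGF-1 replicates 1 to 4. The groups stood far apart, with a log2 fold change of -1.56 ± 0.15 (adjusted p = 0.00366; largest p 7.61e-06). Sptbn1 (spectrin), Ttc28 and Megf11 completed the 5 lower genes of this kind, at log2 fold changes of -0.57, -0.69 and -0.70. With a trend over gene length removed, as described further on, Sptbn1, Ttc28 and Megf11 lost the call (adjusted p = 0.102, 0.0310 and 0.0169).

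On the higher side, Tnfrsf12a (the TWEAK receptor Fn14) measured 25.0, 27.5, 27.4 and 25.2 CPM in SPONT replicates 1 to 4 and 42.8, 44.0, 47.7 and 43.6 CPM in IGF-1 replicates 1 to 4. SPONT libraries spanned 25.0 to 27.5 CPM and none approached the IGF-1 range, giving a log2 fold change of 0.76 ± 0.074 (adjusted p = 0.00366; largest p 7.67e-06). Metrn (meteorin, a secreted factor of glial differentiation) rose by 0.95 ± 0.097 on the log2 scale, from 67.0 ± 8.72 to 129 ± 9.35 CPM (SD, n = 4 each; adjusted p = 0.00383). The remaining 3 were the linker histone H1f2 (0.58), the small heat shock protein Cryab (0.78) and the homeodomain protein Hopx (0.80). These 3 also lost the call with the length trend removed (adjusted p = 0.0791, 0.0166 and 0.0315). H1f2 belongs to a family of near-identical genes, so its count may be shared with copies.

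By size, the 10 largest higher DEGs above 10 CPM were led by Cidea, a lipid droplet protein. It measured 14.6, 12.3, 4.70 and 4.69 CPM in SPONT replicates 1 to 4 and 30.8, 31.8, 39.3 and 30.2 CPM in IGF-1 replicates 1 to 4. SPONT replicates 1 and 2 were above replicates 3 and 4, and every IGF-1 library was higher, and the log2 fold change was 1.86 ± 0.34 (adjusted p = 0.00716). Next came the Notch ligand-like Dlk2 (1.72), the mitochondrial Chchd10 (1.57), the complement regulator Cd59a (1.52), Junb (1.28), Golga7b (1.26), an unnamed gene with Entrez identifier 100861652 (1.24), the cartilage matrix protein Ucma (1.13), the tetraspanin Tspan4 (1.09) and Lcat, which esterifies cholesterol on lipoproteins (1.08).

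Among the 10 largest lower DEGs, SPONT replicate 2 lay from -0.853% (Tenm2) to 78.6% (Mamld1) of the way from the other SPONT libraries to IGF-1, and past the midpoint for Peg3, Slc2a13, Mamld1, Ralgps1, Gatad2b, Gm5454 and Kit. The imprinted zinc finger gene Peg3 measured 45.4, 14.0, 29.1 and 31.3 CPM in SPONT replicates 1 to 4 and 9.06, 9.26, 10.3 and 14.0 CPM in IGF-1 replicates 1 to 4. Its SPONT replicate 2 and IGF-1 replicate 4 were almost level, and the log2 fold change moved from -1.49 ± 0.29 (adjusted p = 0.00825) to -1.72 ± 0.18 without that library. Slc2a13, a proton and myo-inositol transporter, had 8.00 CPM in SPONT replicate 2, 8.00 to 19.6 CPM over all SPONT libraries and 5.22 to 6.59 CPM in IGF-1 (log2 fold change -1.45 ± 0.24, adjusted p = 0.00572). Kit, the stem cell factor receptor, was lower in every IGF-1 library (7.45 to 9.25 CPM) than in any SPONT library (13.4 to 23.7 CPM), with a log2 fold change of -1.27 ± 0.17. The others were D830031N03Rik (-1.70), Ralgps1 (-1.61), the chromatin remodelling subunit Gatad2b (-1.61), Gm5454 (-1.37) and Mamld1 (-1.27), beside Tenm2 and Cacng5 above.

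The receptor for the added ligand and the insulin receptor were lower in IGF-1 than in SPONT. Igf1r (Entrez gene 16001, chr7:67952257-68233668) measured 49.8, 38.2, 51.2 and 48.6 CPM in SPONT replicates 1 to 4 and 28.4, 24.5, 25.7 and 25.7 CPM in IGF-1 replicates 1 to 4. No IGF-1 library reached the lowest SPONT library, which was replicate 2. The log2 fold change was -0.85 ± 0.10 (adjusted p = 0.00383), a SPONT level 1.80 times that of IGF-1, and ranged from -0.93 to -0.81 over the 8 fits. Insr measured 45.6, 30.7, 35.2 and 36.5 CPM in SPONT replicates 1 to 4 and 25.0, 25.8, 22.4 and 22.8 CPM in IGF-1 replicates 1 to 4. These groups did not overlap either, and Insr fell with a log2 fold change of -0.63 ± 0.12 (adjusted p = 0.00743).

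Neither receptor adaptor passed with all 8 libraries. Irs2 measured 51.9, 20.7, 37.5 and 31.8 CPM in SPONT replicates 1 to 4 and 15.0, 13.2, 14.1 and 21.0 CPM in IGF-1 replicates 1 to 4. SPONT replicate 2 and IGF-1 replicate 4 overlapped, and with a log2 fold change of -1.17 ± 0.25 its adjusted p of 0.0104 just missed the threshold; without SPONT replicate 2 the values were -1.35 ± 0.18 and 1.31e-04. Irs1 had a log2 fold change of -0.036 ± 0.12 (adjusted p = 0.839), and its groups overlapped. Grb10, an inhibitor that binds both receptors, measured 18.1, 9.46, 18.5 and 21.6 CPM in SPONT replicates 1 to 4 and 8.63, 8.98, 7.73 and 8.02 CPM in IGF-1 replicates 1 to 4. It was a lower DEG (-1.02 ± 0.21, adjusted p = 0.00931), with SPONT replicate 2 just above the highest IGF-1 library. Pik3r1, the regulatory subunit of PI3K, fell from 567 ± 64.1 to 369.8 ± 14.7 CPM (SD, n = 4 each; log2 fold change -0.62 ± 0.087, adjusted p = 0.00455).

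The promoters of Irs2 and Igf1r (RefSeq, GRCm38.p6, 250 bases before to 50 after the annotated start) are shown because Irs2 is a known target of FOXO factors and Igf1r encodes the receptor of the added ligand. Insr has no entry in the table used. Capitals mark matches to the insulin response element CAAAACAA or the DAF-16 binding element GTAAACA on either strand.
Irs2, chr8:11008880-11009179, minus strand: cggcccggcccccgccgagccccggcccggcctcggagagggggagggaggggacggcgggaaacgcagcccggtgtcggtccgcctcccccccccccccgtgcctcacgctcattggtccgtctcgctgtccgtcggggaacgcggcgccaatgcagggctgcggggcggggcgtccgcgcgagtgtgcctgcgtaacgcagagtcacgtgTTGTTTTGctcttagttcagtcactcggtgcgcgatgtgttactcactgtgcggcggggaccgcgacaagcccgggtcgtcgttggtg
Igf1r, chr7:67952007-67952306, plus strand: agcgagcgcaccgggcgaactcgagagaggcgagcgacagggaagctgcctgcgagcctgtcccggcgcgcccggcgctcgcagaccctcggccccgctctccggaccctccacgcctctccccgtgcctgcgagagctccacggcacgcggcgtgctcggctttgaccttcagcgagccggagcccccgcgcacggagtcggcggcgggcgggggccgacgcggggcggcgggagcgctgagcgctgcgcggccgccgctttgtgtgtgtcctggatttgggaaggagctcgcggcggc
The Irs2 window held 1 match, TTGTTTTG, the insulin response element on the opposite strand, beginning 38 bases before the start. The Igf1r window held none. Of 32851 mouse promoters of this length, 2.51% held the insulin response element and 3.65% the DAF-16 element. A match describes letters and does not show that a factor binds.

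Binding proteins changed in both directions. Igfbp5 measured 1752, 1684.2, 1602 and 1593 CPM in SPONT replicates 1 to 4 and 1369.5, 1354, 1227 and 1282 CPM in IGF-1 replicates 1 to 4. It fell with a log2 fold change of -0.34 ± 0.07 (adjusted p = 0.00917), without overlap. Igfbp3 fell as well, from 68.8 ± 7.35 to 50.9 ± 1.43 CPM (SD, n = 4 each; -0.44 ± 0.085, adjusted p = 0.00786). Igfbp7, a related secreted protein with weak affinity for IGF, rose from 33.3 ± 7.52 to 55.1 ± 1.79 CPM (0.73 ± 0.14, adjusted p = 0.0077). Igfbp4 (0.28 ± 0.11, adjusted p = 0.0732) and Igfbp2 (-0.056 ± 0.16, adjusted p = 0.81) did not pass. The gene for IGF-1 itself stayed at or under 0.308 CPM in every library, and its difference of 0.35 ± 0.63 was far from the threshold (adjusted p = 0.692). Of 17 measured genes of the IGF axis, 1 was a higher and 5 were lower DEGs, beside 2.80% and 3.75% of all genes tested. The median log2 fold change of the 17 was 0.049, beside -0.0067 over all genes tested. Without SPONT replicate 2 the counts were 2 and 6, beside 17.7% and 20.2% of all genes.

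**Figure D3:**
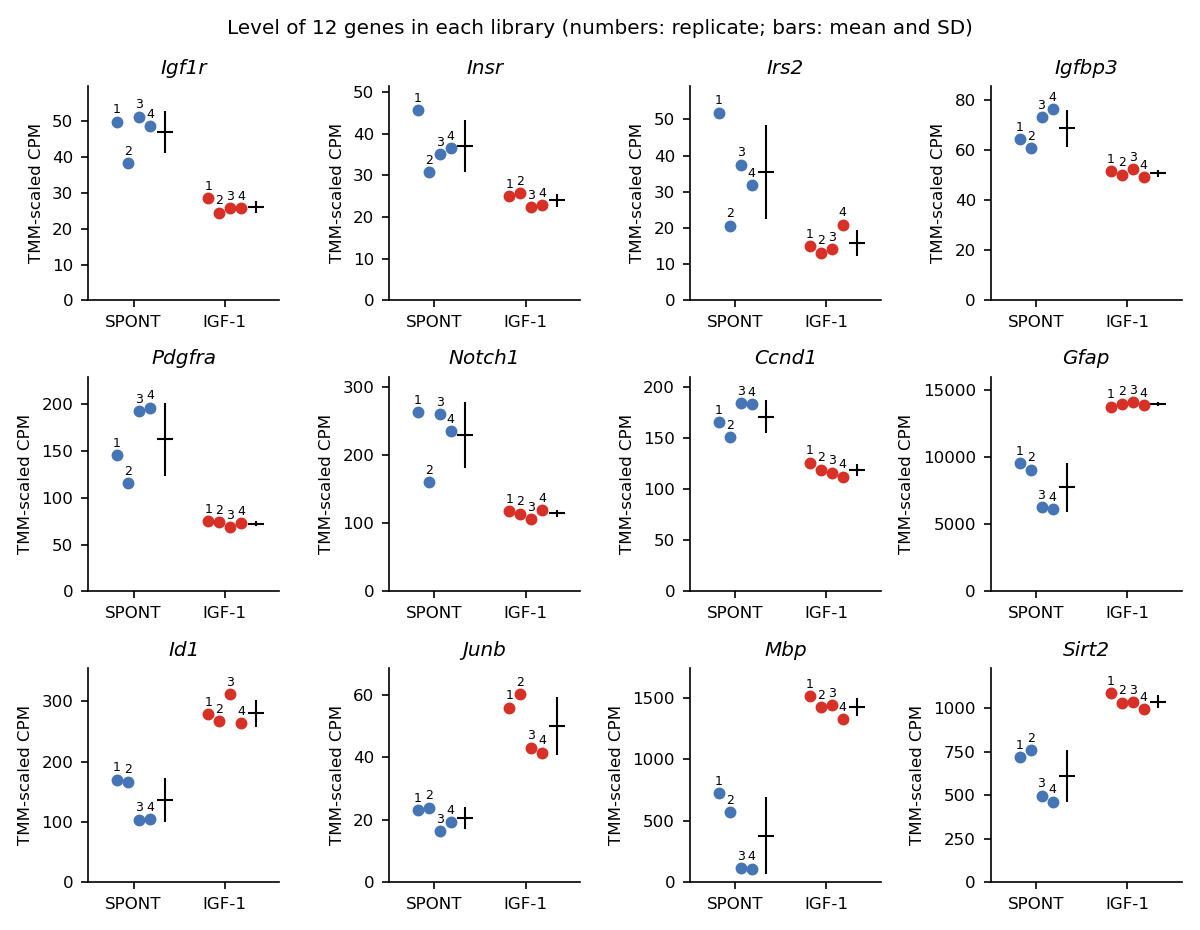
TMM-scaled CPM of 12 genes in each SPONT (blue) and IGF-1 (red) library, with the replicate number above each point and the mean and SD of the 4 libraries beside them, all axes starting at 0. The IGF-1 libraries lie together for most genes (Mbp 1327 to 1509.8 CPM), whereas the SPONT libraries spread, with replicate 2 lowest for Igf1r, Insr, Irs2, Igfbp3, Pdgfra, Notch1 and Ccnd1 and replicates 1 and 2 above 3 and 4 for Gfap, Id1 and Mbp.

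FOXO factors activate genes such as Irs2, Insr and Sesn3 when insulin signalling is low. Of 24 measured FOXO and insulin feedback genes, 0 were higher and 3 were lower DEGs by edgeR (Insr, Bcl6 and Pik3r1; 1 higher and 12 lower at an unadjusted p under 0.05, 1 and 10 by DESeq2), with a median log2 fold change of -0.28. Bcl6, a transcriptional repressor, measured 34.8, 21.1, 36.5 and 36.1 CPM in SPONT replicates 1 to 4 and 19.1, 19.4, 17.4 and 20.1 CPM in IGF-1 replicates 1 to 4. SPONT replicate 2 lay close to the IGF-1 libraries and the other 3 SPONT libraries well above them (log2 fold change -0.76 ± 0.16, adjusted p = 0.0097). Foxo1 had a difference of -0.35 ± 0.081 (adjusted p = 0.0131) and Foxo3 of -1.24 ± 0.27 (adjusted p = 0.011); neither passed with all 8 libraries. Over all genes, 6588 of 14941 had an unadjusted p under 0.05, and DESeq2 called 1600 higher and 1965 lower. Without SPONT replicate 2 the list held 1 higher and 13 lower DEGs. Higher and lower shares over all genes were 2.80% and 3.75% with all 8 libraries and 17.7% and 20.2% without it. The lower DEGs included Foxo1 (-0.40), Foxo3 (-1.46), Irs2 and Sesn3 (-0.57), and the 1 higher gene was Gadd45a (0.84).

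No lipid synthesis gene listed was a higher DEG by edgeR with all 8 libraries. Over all genes tested, 2.80% were higher and 3.75% lower. An unadjusted p under 0.05 was reached by 6588 of 14941 genes, and DESeq2 called 1600 higher and 1965 lower. SREBP2 drives cholesterol synthesis genes, and of 24 such genes 2 were lower DEGs and 0 higher by edgeR (12 lower and 2 higher at an unadjusted p under 0.05, 5 and 2 by DESeq2), with a median log2 fold change of -0.14. They were Srebf2, which encodes SREBP2 itself (379 to 517 CPM in SPONT, 303 to 352 CPM in IGF-1; -0.50 ± 0.10, adjusted p = 0.00891), and squalene epoxidase Sqle (176 to 207 and 142 to 157 CPM; -0.40 ± 0.074, adjusted p = 0.00675). Hmgcs1 did not pass (-0.49 ± 0.11, adjusted p = 0.0118). Of 14 fatty acid synthesis genes none was a DEG by edgeR in either direction (2 higher and 6 lower at an unadjusted p under 0.05, 2 and 1 by DESeq2), Fasn standing at -0.38 ± 0.10 (adjusted p = 0.0208). Log2 fold changes also followed gene length, as described further on, and with this trend removed neither Srebf2 (-0.31 ± 0.069, adjusted p = 0.0172) nor Sqle (adjusted p = 0.0105) passed. Leaving out SPONT replicate 2, the cholesterol list held 3 higher and 9 lower DEGs and the fatty acid list 1 and 5. The shares over all genes were then 17.7% higher and 20.2% lower.

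Of 19 glycolysis genes, 3 were higher DEGs and 0 lower by edgeR (8 higher and 1 lower at an unadjusted p under 0.05, and the same counts by DESeq2). Ldha (lactate dehydrogenase) measured 307, 341, 296 and 302 CPM in SPONT replicates 1 to 4 and 417, 412, 447 and 402 CPM in IGF-1 replicates 1 to 4. The groups did not overlap, with a log2 fold change of 0.43 ± 0.071 (adjusted p = 0.00563). Tpi1 (0.51 ± 0.093, adjusted p = 0.00675) and Pgk1 (0.31 ± 0.061, adjusted p = 0.00783) were the others, and the median of the list was 0.099. Among all 14941 genes tested, 6588 had an unadjusted p under 0.05, and DESeq2 called 1600 higher and 1965 lower. With SPONT replicate 2 left out the glycolysis list held 7 higher and 1 lower. Higher and lower shares over all genes were 2.80% and 3.75% with all 8 libraries and 17.7% and 20.2% without it. With the length trend removed, Ldha kept its call, and Tpi1 (0.38 ± 0.077, adjusted p = 0.012) and Pgk1 (0.11 ± 0.061, adjusted p = 0.22) did not. The 17 ATF4 genes, 17 ribosome biogenesis genes, 12 genes of the unfolded protein response and 10 hypoxia-inducible genes held no DEG by edgeR with all 8 libraries. At an unadjusted p under 0.05 these lists held 1, 0, 2 and 2 higher and 2, 7, 1 and 2 lower genes, and DESeq2 called 0, 0, 1 and 0 higher and 0, 5, 1 and 1 lower. Without SPONT replicate 2 they held 8, 1, 3 and 0 higher and 1, 6, 2 and 2 lower DEGs, respectively. In that fit 18, 17, 12 and 11 of their genes were tested.

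Of 27 cell cycle genes, 0 were higher and 1 was a lower DEG by edgeR (8 higher and 2 lower at an unadjusted p under 0.05, 3 and 1 by DESeq2), beside 2.80% and 3.75% of all genes tested. Ccnd1 (cyclin D1), which links growth factors to the cell cycle, measured 166, 151, 185 and 184 CPM in SPONT replicates 1 to 4 and 126, 119, 116 and 112 CPM in IGF-1 replicates 1 to 4. It fell without overlap, with a log2 fold change of -0.53 ± 0.08 (adjusted p = 0.00488), and the median of the list was 0.22. Among all 14941 genes tested, 6588 had an unadjusted p under 0.05, and DESeq2 called 1600 higher and 1965 lower. Mki67, a marker of dividing cells, had 0.22 ± 0.15 (adjusted p = 0.288). The list held 8 higher and 2 lower DEGs without SPONT replicate 2, beside 17.7% and 20.2% of all genes. That library had 49.7 CPM of Mki67, above all IGF-1 libraries (36.8 to 46.4 CPM). Cdkn2b (p15), an inhibitor of the kinase that cyclin D1 activates, rose from 19.9 ± 2.51 to 33.3 ± 0.521 CPM (SD, n = 4 each; 0.74 ± 0.096, adjusted p = 0.00383). It was the 1 DEG by edgeR of 7 such inhibitors, of which DESeq2 called 4 higher and 0 lower, and 4 were higher and 1 lower without SPONT replicate 2. With the length trend removed, Cdkn2b was at 0.37 ± 0.12 (adjusted p = 0.0594).

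Of the genes downstream of ERK, 2 immediate early genes rose and 2 ETS factors fell. Junb, an AP-1 transcription factor, measured 23.2, 23.9, 16.3 and 19.3 CPM in SPONT replicates 1 to 4 and 55.9, 60.1, 43.0 and 41.4 CPM in IGF-1 replicates 1 to 4. Every IGF-1 library was above every SPONT library, and the log2 fold change was 1.28 ± 0.15 (adjusted p = 0.00383). Egr1 also rose (26.0 to 37.6 CPM in SPONT, 44.3 to 72.9 CPM in IGF-1; 0.83 ± 0.17, adjusted p = 0.0087). In both genes IGF-1 replicates 1 and 2 were above 3 and 4. Etv1 measured 163, 86.9, 141 and 147 CPM in SPONT replicates 1 to 4 and 60.8, 60.3, 52.1 and 75.9 CPM in IGF-1 replicates 1 to 4 and fell by 1.11 on the log2 scale (adjusted p = 0.00547). Etv5 was lower as well (-0.80 ± 0.15, adjusted p = 0.00723). By edgeR these were the DEGs of 19 ERK feedback and immediate early genes, which held 7 higher and 7 lower at an unadjusted p under 0.05, 4 and 3 DEGs by DESeq2, and 4 and 6 without SPONT replicate 2. By edgeR, 2.80% of all genes tested were higher and 3.75% lower, and 17.7% and 20.2% without that library. An unadjusted p under 0.05 was reached by 6588 of 14941 genes, and DESeq2 called 1600 higher and 1965 lower. Corrected for gene length, Egr1 did not pass (0.87 ± 0.17, adjusted p = 0.0107).

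Progenitor genes that passed the test were lower in IGF-1. Notch1, the receptor that holds neural stem cells undifferentiated, measured 263, 159.8, 259 and 235 CPM in SPONT replicates 1 to 4 and 117, 114, 106 and 119 CPM in IGF-1 replicates 1 to 4. Replicate 2 was the lowest SPONT library and still above the IGF-1 range, and the log2 fold change was -1.01 ± 0.14 (adjusted p = 0.00433). Its ligand Dll1 measured 121, 95.7, 182 and 178 CPM in SPONT replicates 1 to 4 and 74.3, 69.2, 57.9 and 61.8 CPM in IGF-1 replicates 1 to 4 and fell likewise (-1.13 ± 0.19, adjusted p = 0.00572). Egfr, the receptor for the mitogen that was lowered, measured 89.4, 59.7, 106 and 106 CPM in SPONT replicates 1 to 4 and 43.4, 45.7, 44.9 and 47.0 CPM in IGF-1 replicates 1 to 4. It stood at 2.00 times the IGF-1 level in SPONT (adjusted p = 0.00528). With Sox9 (-0.46 ± 0.065, adjusted p = 0.00441) these made 4 lower and 0 higher DEGs of 16 progenitor genes, with a median of -0.38. Nes (nestin) did not pass (-0.53 ± 0.16, adjusted p = 0.0329). Leaving out SPONT replicate 2 brought the count to 7 lower and 0 higher, Nes included. Lower and higher shares over all genes were 3.75% and 2.80% with all 8 libraries and 20.2% and 17.7% without it.

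Early markers of oligodendrocyte progenitors were among the lower DEGs. Pdgfra, the PDGF receptor of oligodendrocyte progenitors, measured 146, 116, 193.2 and 197 CPM in SPONT replicates 1 to 4 and 74.9, 74.2, 68.6 and 72.7 CPM in IGF-1 replicates 1 to 4. All SPONT libraries exceeded all IGF-1 libraries, with a log2 fold change of -1.16 ± 0.15 (adjusted p = 0.00383) and a SPONT level 2.24 times that of IGF-1. Ptprz1, a receptor phosphatase of progenitors, had -0.87 ± 0.17 (adjusted p = 0.00835) and Cspg4, the NG2 proteoglycan, -0.47 ± 0.085 (adjusted p = 0.00675). By edgeR these 3 were the DEGs of the 20 genes in the list, of which 9 had a positive and 11 a negative log2 fold change with a median of -0.079. At an unadjusted p under 0.05 the list held 3 higher and 7 lower genes, and by DESeq2 1 and 6 DEGs. Over all genes, 6588 of 14941 had such a p, and DESeq2 called 1600 higher and 1965 lower. Without SPONT replicate 2 the list held 2 higher (Bcas1 and C1ql1) and 6 lower DEGs. Of all genes tested edgeR called 2.80% higher and 3.75% lower, and 17.7% and 20.2% without that library. The lineage factor Olig2 was lower in every IGF-1 library (648 to 714 CPM) than in any SPONT library (774 to 999 CPM), and its adjusted p of 0.0107 just missed the threshold. Gpr17, the marker of the committed stage, differed by 0.023 ± 0.20 (adjusted p = 0.938) with overlapping groups. Sox10 had 0.66 ± 0.25 (adjusted p = 0.0676) and overlapped.

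Myelin genes had the highest median difference of the 25 lists and varied widely among SPONT libraries. Mbp (myelin basic protein) measured 725, 572, 114 and 111 CPM in SPONT replicates 1 to 4 and 1509.8, 1425, 1438 and 1327 CPM in IGF-1 replicates 1 to 4. Within SPONT, replicates 1 and 2 were far above replicates 3 and 4, while the IGF-1 libraries spanned 1327 to 1509.8 CPM and none overlapped SPONT. The log2 fold change of 1.91 ± 0.55 had a wide SE, and with an adjusted p of 0.0266 Mbp was not a DEG. Mag (1.81 ± 0.51), Cldn11 (1.73 ± 0.40) and Opalin (1.69 ± 0.42), all proteins of the myelin sheath, also lay wholly above SPONT with adjusted p of 0.0253, 0.0136 and 0.0168. Sirt2, a deacetylase abundant in myelin, was the 1 higher DEG of 19 (463 to 759.6 CPM in SPONT, 992 to 1086 CPM in IGF-1; 0.77 ± 0.15, adjusted p = 0.00821).

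The median log2 fold change of the 19 myelin genes was 0.63, and 9 of them did not overlap between groups, all higher in IGF-1, beside 13.6% of all genes tested. Summed, they came to 1689.9 to 3433 CPM in SPONT and 4715 to 5131 CPM in IGF-1. With SPONT replicate 2 left out, 9 were higher DEGs (17.7% over all genes) and 0 lower, among them Mbp (2.17 ± 0.56, adjusted p = 0.00673) and Opalin (adjusted p = 5.98e-04). Mog, a protein of mature myelin, stayed low in both groups, at 0.363 to 2.51 and 1.38 to 1.66 CPM.

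Astrocyte genes divided between higher and lower. Gfap measured 9547, 9062, 6284 and 6107 CPM in SPONT replicates 1 to 4 and 13739, 13969.9, 14094 and 13879 CPM in IGF-1 replicates 1 to 4. The highest SPONT library was well under the lowest IGF-1 library, and Gfap rose 1.80-fold (log2 fold change 0.84 ± 0.14, adjusted p = 0.00589). S100b, a calcium-binding protein also made by oligodendrocytes, measured 121, 180.4, 84.8 and 83.8 CPM in SPONT replicates 1 to 4 and 247, 219.6, 282 and 229 CPM in IGF-1 replicates 1 to 4; its SPONT replicate 2 came near the IGF-1 range, and it was a DEG at 1.06 ± 0.22 (adjusted p = 0.00986). Clu (clusterin, 0.66 ± 0.12, adjusted p = 0.00716), Pla2g7 (0.67 ± 0.11, adjusted p = 0.00563) and Id3 completed 5 higher DEGs. Slc1a2, the glutamate transporter GLT-1, was the 1 lower DEG, from 177 ± 28.1 to 119 ± 6.66 CPM (SD, n = 4 each; -0.57 ± 0.11, adjusted p = 0.00723). Its relative Slc1a3 (GLAST, -0.51 ± 0.18, adjusted p = 0.0553) and the water channel Aqp4 (0.18 ± 0.19, adjusted p = 0.487) did not pass. The 25 genes had a median log2 fold change of -0.0017, and without SPONT replicate 2 they held 6 higher and 7 lower DEGs. Higher and lower shares over all genes were 2.80% and 3.75% with all 8 libraries and 17.7% and 20.2% without it.

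Of 22 reactive astrocyte genes, 3 were higher DEGs and 0 lower by edgeR (9 and 1 at an unadjusted p under 0.05, 7 and 0 by DESeq2), with a median of 0.34. They were Timp1 (1.01 ± 0.20), Ptx3 (0.80 ± 0.17) and Socs3, the feedback inhibitor of cytokine receptors (0.62 ± 0.11), all low, at no more than 3.87, 4.16 and 10.5 CPM in any library. Corrected for gene length, none of the 3 passed (Timp1 0.54 ± 0.14, adjusted p = 0.0261; Ptx3 0.0204; Socs3 0.0165). Vim (vimentin) was at 1604 to 1843 and 1853 to 2149.5 CPM (0.20 ± 0.077, adjusted p = 0.0673). Over all genes, 6588 of 14941 had an unadjusted p under 0.05, and DESeq2 called 1600 higher and 1965 lower. Without SPONT replicate 2 the list held 8 higher and 1 lower DEGs. Higher and lower shares over all genes were 2.80% and 3.75% with all 8 libraries and 17.7% and 20.2% without it.

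Id genes, the targets of BMP signalling that block neurogenic transcription factors, rose in all 4 members measured. Id1 measured 170.2, 167, 104 and 105 CPM in SPONT replicates 1 to 4 and 278, 267, 312 and 263 CPM in IGF-1 replicates 1 to 4. SPONT replicates 1 and 2 were above replicates 3 and 4, with every IGF-1 library higher still (log2 fold change 1.04 ± 0.17, adjusted p = 0.00543). Id3 measured 149, 135, 102 and 105 CPM in SPONT replicates 1 to 4 and 209, 208, 226 and 210.1 CPM in IGF-1 replicates 1 to 4 (0.80 ± 0.12, adjusted p = 0.00488). Id4 measured 122, 111, 109 and 115 CPM in SPONT replicates 1 to 4 and 166, 169, 166 and 185 CPM in IGF-1 replicates 1 to 4, with little spread within groups and SPONT replicate 2 among its own (0.58 ± 0.068, adjusted p = 0.00383). Id2 (0.47 ± 0.079, adjusted p = 0.00582) and the decoy receptor Bambi (0.50 ± 0.089, adjusted p = 0.0066) brought the list to 5 higher and 0 lower DEGs of 12, with a median of 0.49. Bmp4, a ligand, was higher in all IGF-1 libraries (83.0 to 96.0 CPM) than in SPONT (48.7, 56.6, 15.4 and 12.9 CPM), but with this spread its adjusted p was 0.0282. The list was the same in direction without SPONT replicate 2, with 7 higher and 0 lower DEGs. Of all genes tested 2.80% were higher and 3.75% lower, and 17.7% and 20.2% without that library.

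Among neuronal genes 2 fell and 0 rose by edgeR (5 lower and 3 higher at an unadjusted p under 0.05, 5 and 1 by DESeq2). Dcx (doublecortin), a microtubule protein of young neurons, measured 46.7, 35.7, 27.8 and 27.6 CPM in SPONT replicates 1 to 4 and 16.8, 15.4, 15.0 and 13.7 CPM in IGF-1 replicates 1 to 4 (log2 fold change -1.18 ± 0.16, adjusted p = 0.00433). Every SPONT library exceeded every IGF-1 library. Rbfox3 (NeuN) was the other lower DEG (-0.54 ± 0.091, adjusted p = 0.0058), and of 21 neuronal genes 14 were measured, with a median of -0.34. Tubb3 differed by 0.19 ± 0.084 (adjusted p = 0.113). Over all genes, 6588 of 14941 had an unadjusted p under 0.05, and DESeq2 called 1600 higher and 1965 lower. Without SPONT replicate 2 the list, then with 15 genes tested, held 4 higher and 4 lower DEGs, Tubb3 among the higher. Of all genes tested edgeR called 2.80% higher and 3.75% lower, and 17.7% and 20.2% without that library. Hspe1, a mitochondrial chaperonin, was the 1 DEG of 10 heat shock genes (0.61 ± 0.12, adjusted p = 0.00786), and 11 interferon-stimulated genes held none by edgeR (3 higher and 1 lower at an unadjusted p under 0.05, 0 by DESeq2). Rpl22, which carries the tag, did not pass (0.12 ± 0.074, adjusted p = 0.235).

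**Figure D4:**
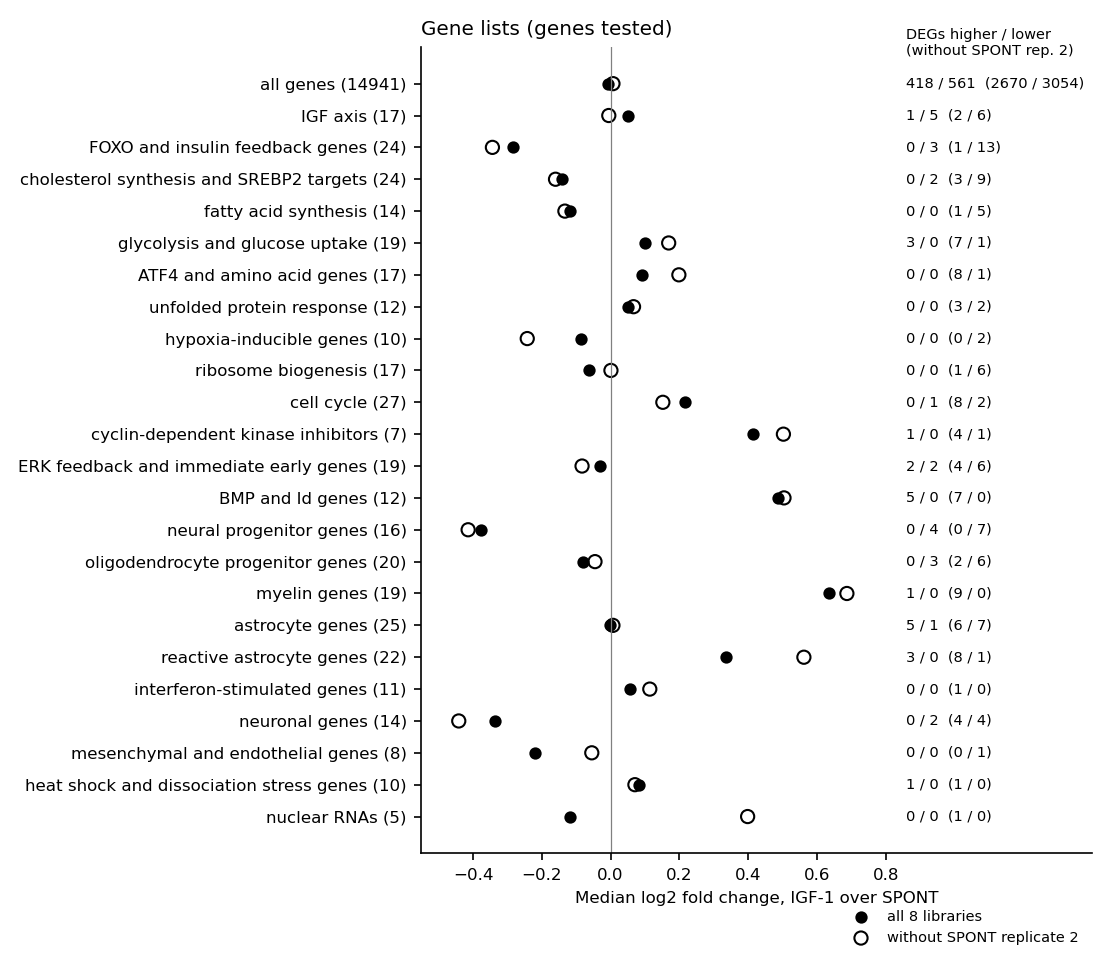
Median log2 fold change (IGF-1 over SPONT) of each gene list of 5 or more tested genes with all 8 libraries (filled) and without SPONT replicate 2 (open), with the number of genes tested in parentheses and the counts of higher and lower DEGs on the right. Myelin (0.63), BMP and Id (0.49) and cyclin-dependent kinase inhibitor genes (0.42) have the highest medians, and neural progenitor (-0.38) and neuronal genes (-0.34) the lowest.

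The length of a gene's exons moved with the comparison. Among 13720 genes with a known length, the median log2 fold change fell from 0.30 in the shortest of 5 equal groups (62 to 2522 bases) over 0.09, -0.05 and -0.16 to -0.30 in the longest (7751 to 123179 bases). The shortest group held 213 higher and 9 lower DEGs, and the longest 12 higher and 326 lower. Median length was 2335 bases among higher DEGs, 8564 among lower DEGs and 4499 over all, and Spearman's rho of length with log2 fold change across genes, which are not independent replicates, was -0.53. SPONT replicate 2 had the trend of the IGF-1 libraries. Deviations of the longest group from the mean of all 8 libraries had medians of 0.29, 0.14 and 0.17 in SPONT replicates 1, 3 and 4, -0.045 in SPONT replicate 2 and -0.20 to -0.11 in IGF-1. Per the labels only RNA above a minimum integrity was sequenced; values per library are not given in the sources used here, and the part of RNA quality was not tested.

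**Figure D5:**
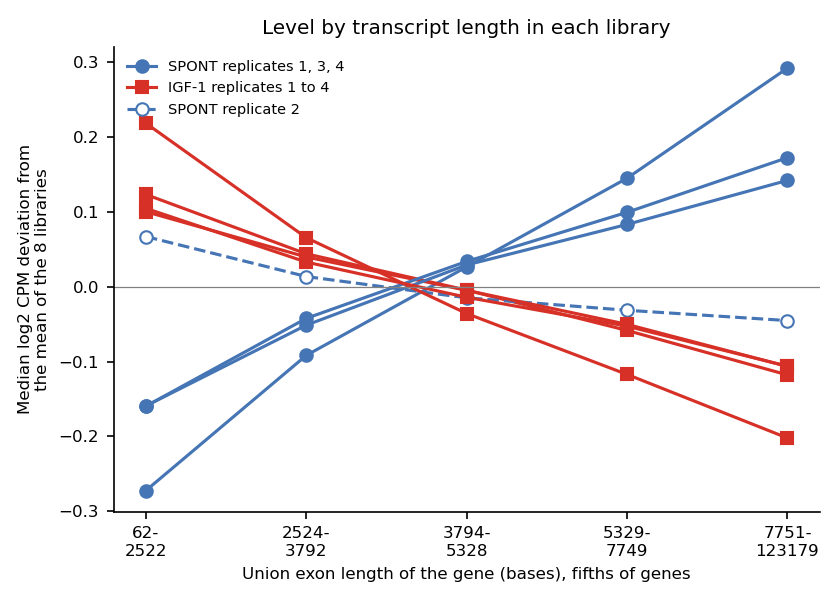
Median deviation of log2 CPM from the mean of the 8 libraries, for 5 equal groups of genes ordered by union exon length in bases, 1 line per library. SPONT replicates 1, 3 and 4 run from negative for short to positive for long genes (0.14 to 0.29 in the longest group), the IGF-1 libraries run the opposite way (-0.20 to -0.11), and SPONT replicate 2 (dashed) follows the IGF-1 libraries less steeply.

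With this trend removed from each library, 409 DEGs were called, 214 higher and 195 lower, of which 305 were among the 979. Genes that kept the call included Igf1r (-0.47 ± 0.075, adjusted p = 0.00693), Pdgfra (-0.89 ± 0.13, 0.00608), Notch1 (-0.65 ± 0.089, 0.0054), Junb (1.09 ± 0.16, 0.00598) and Gfap (0.86 ± 0.15, 0.00851). Also kept were Pik3r1, Igfbp3, Ccnd1, Egfr, Dll1, Etv1, Etv5, Id4, Dcx, Ldha, Kit, Metrn, Tnfrsf12a, Tenm2 and Cacng5. Calls were lost for Insr (-0.28 ± 0.074, adjusted p = 0.0286), Igfbp5 (-0.21 ± 0.067, 0.0512), Igfbp7 (0.32 ± 0.15, 0.152), Id1 (0.61 ± 0.17, 0.0312), Cspg4 (-0.17 ± 0.11, 0.303), H1f2 (0.25 ± 0.092, 0.0791) and Sptbn1 (-0.20 ± 0.083, 0.102). Id2 and Id3 also lost the call (adjusted p = 0.0567 and 0.0269), and Olig2 passed (-0.57 ± 0.085, adjusted p = 0.00633). In all, 40 of the 65 named DEGs lost the call. Beside those above (without Id2, which was not among the 65) and Timp1, Ptx3, Socs3, Srebf2, Sqle, Tpi1, Pgk1, Cdkn2b and Egr1, they were Bcl6, Cd59a, Cidea, Cryab, Dlk2, Gatad2b, Gm5454, Grb10, Hopx, Hspe1, Lcat, Mamld1, Megf11, Peg3, Ptprz1, Ralgps1, Rbfox3, S100b, Slc1a2, Tspan4, Ttc28, Ucma and Sirt2, the last being the 1 DEG of the myelin list (0.83 ± 0.16, adjusted p = 0.0104). Gm5454 has no known exon length, so no trend was removed from its own counts. Its log2 fold change stayed at -1.37, with an adjusted p of 0.0101 by edgeR in the corrected fit. The length correction was chosen after the data were seen. It moved the median of cyclin-dependent kinase inhibitors from 0.42 to 0.14, of neuronal genes from -0.34 to -0.10, of FOXO and insulin feedback genes from -0.28 to -0.14 and of the unfolded protein response from 0.051 to -0.12. Smaller shifts were those of myelin genes (0.63 to 0.58), BMP and Id genes (0.49 to 0.43) and neural progenitor genes (-0.38 to -0.36).

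For orientation, levels in other cells of the series are given as CPM of each library's own total, without TMM scaling (mean ± SD). Igf1r stood at 149 ± 2.42, 208 ± 19.9 and 135 ± 36.4 CPM in the NPC groups of passage 5, passage 15 and passage 15 labelled d3 (n = 4 each), 47.9 ± 6.73 in SPONT, 39.4 ± 2.29 with CNTF, 30.3 ± 2.25 with 1% FBS and 25.6 ± 1.99 with IGF-1 (n = 4 each). In the same 3 NPC groups Irs2 stood at 163 ± 8.41, 476 ± 35.6 and 107 ± 16.2 CPM, and at 298 ± 15.4 CPM in passage 30. Its level was 36.2 ± 13.7 CPM in SPONT, 12.5 ± 2.55 with CNTF, 40.8 ± 10.2 with 1% FBS and 15.5 ± 3.32 with IGF-1. Mbp was at 5.20 ± 1.07 CPM in NPC of passage 15, 386 ± 322 in SPONT, 287 ± 22.7 with CNTF, 164 ± 76.8 with 1% FBS and 1402 ± 113 with IGF-1. The mean with IGF-1 was the highest of the differentiated groups listed, below the 4312 ± 832 CPM of the 9 host astrocyte samples. Those samples came from the spinal cord of Gfap-Cre RiboTag mice and not from the ESC line. Gfap followed another order, at 7879.9 ± 1815 CPM in SPONT, 13689 ± 689 with IGF-1, 18588 ± 2596 with 1% FBS and 22084 ± 403 with CNTF. Id1 stood at 275 ± 13.8 CPM with IGF-1, against 139 ± 36.8 in SPONT, 183 ± 9.39 with 1% FBS and 80.6 ± 4.49 with CNTF. These levels were not tested against each other.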

How the data were processed

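Ribosome-bound RNA was isolated by immunoprecipitation of hemagglutinin, poly(A)-selected and sequenced as paired-end reads. Per the submitters' processing notes, the authors used Trimmomatic, the aligner HISAT2 with the mouse build mm10, and featureCounts, and deposited raw counts per Entrez gene for each library without normalisation. Counts of 8 libraries were tested with edgeR 4.0.16 in R 4.3.3 (quasi-likelihood F test, TMM, default filterByExpr, Benjamini-Hochberg over 14941 genes, adjusted p below 0.01); the SE is the size of the log2 fold change divided by the square root of F. DESeq2 1.42.0 and limma 3.58.1 served as alternatives. Symbols and coordinates came from RefSeq GRCm38.p6 and exon lengths from GENCODE; antisense partners and overlapping genes may share reads. Scripts were tested on simulated data. Genes were named by size (10 per direction, at least 10 CPM and no overlap), by the smallest largest p over 8 leave-one-out fits (5 per direction), by list (up to 3 DEGs per direction) or in advance. Some genes of the rule are not reported here. Other list members named in the text were chosen after their values were seen. The members and the 25 lists were chosen with earlier results of these data known. For the length correction, each gene's log2 CPM was first expressed as its deviation from the gene's mean over the libraries fitted. In each library a lowess curve (span 0.3) of this deviation on log2 exon length entered the fit as an offset. A group difference that follows length was therefore removed too. Genes without a known length were left uncorrected. This choice was made after seeing the data.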

Additional observations from a re-analysis of the deposited data

Results flagged for a closer look

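In groups of 4 libraries, 1 value stood far from the other 3 in 6 of 172 group values checked for the 86 named genes. Many of these genes were named for non-overlap or a small p, so the count cannot be set against a rate given by chance. Of these, 4 were SPONT replicate 2, which stood at 80.0 CPM for Metrn (61.4 to 63.9 in the other SPONT libraries), 8.00 CPM for Slc2a13 (17.7 to 19.6), 21.1 CPM for Bcl6 (34.8 to 36.5) and 26.4 CPM for Etv5 (39.5 to 40.8). In each it lay on the side of the IGF-1 libraries. SPONT replicate 1 stood at 96.2 CPM for Aqp4 (53.7 to 54.4 in the others), above all 4 IGF-1 libraries. IGF-1 replicate 3 stood at 226 CPM for Id3 (208 to 210 in the others).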

How the results depend on the processing

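With all 8 libraries, edgeR called 979 DEGs (418 higher, 561 lower). DESeq2 called 3565 (1600 higher, 1965 lower), limma voom with sample quality weights 6998 (3313 and 3685), and a fit of the SPONT, CNTF, IGF-1 and 1% FBS libraries together 3718 (1717 and 2001). An adjusted p below 0.05 gave 4530.0 (2051 and 2479). Length correction gave 409 (214 and 195), and 4083 (2107 and 1976) with SPONT replicate 2 also left out. Leaving out 1 library at a time gave 0 to 5724 DEGs, 0 to 2670 higher and 0 to 3054 lower; the highest values were without SPONT replicate 2, and the fits have fewer samples. DESeq2 size factors (955), upper quartile scaling (940), no filter (1189), a stricter filter (998) and robust estimation (931) stayed within 1.5 times, although upper quartile scaling shifted the median of all genes to 0.037 and the split to 509 higher and 431 lower.

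Deviations of same-numbered libraries correlated at -0.058, -0.081, -0.057 and 0.10. Of the SPONT libraries, only replicate 4 had an IGF-1 library of its own number among its best matches. Whether the numbers pair cultures cannot be told from these correlations. With the number as a replicate block 1 DEG remained (Junb, higher; 1 higher and 0 lower), while 979 of the 979 kept their sign and an adjusted p under 0.05.

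Of 65 named DEGs, 64 lost the call under the block, 64 or 65 with SPONT replicate 3 or 4 or any 1 IGF-1 library left out, 24 without SPONT replicate 1, 40 with length correction and 12 with that and without SPONT replicate 2; no named DEG changed sign. Among the named genes, signs changed for 4, none of them a DEG. Irs1 was at 0.0097 with upper quartile scaling, 0.041 with limma voom, 0.22 with length correction and 0.20 with that and without SPONT replicate 2, and ran from -0.12 to 0.085 with 1 library left out. Igfbp2 ran from -0.16 without SPONT replicate 1 to 0.085 without SPONT replicate 4. Gpr17 ran from -0.12 without SPONT replicate 4 to 0.25 without SPONT replicate 1. Tubb3 was at -0.075 with length correction and -0.078 with that and without SPONT replicate 2. The cause of these shifts was not tested.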
